A study of Mus musculus with 21 samples.

Results

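Imprinted genes are expressed mainly from one parental copy, and a list of 33 of them was followed here in the subcommissural organ (SCO) and the hippocampus of newborn mice. Members were taken from the table of P0 samples by gene symbol. Of the 33 listed symbols, 32 were found among the 31883 genes of that table, and Phlda2, a growth-restraining gene of the placenta, was not analysed here. The table held 4 SCO libraries and 5 hippocampal libraries of bulk RNA-seq from C57BL/6 mice at P0 (postnatal day 0), with no genotype or treatment stated in either tissue. The SCO is a gland-like patch of specialised ependyma above the entrance of the cerebral aqueduct, and the hippocampus, a cortical structure of the telencephalon, was the region it was set against. The 12 further samples of the series, from P60 mice (postnatal day 60), were not analysed here. Nothing in the labels ties a library to its own animal or to a pool, so p-values measure only the spread between these libraries, which may be technical.

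Genomic imprinting rests on DNA methylation set in the egg or the sperm at an imprinting control region and kept on that parental copy in the embryo. Many imprinted genes lie in clusters in which a long non-coding RNA made from one parental copy is linked to the silencing of neighbours on the same copy. In the brain, several members are known for roles in neuronal growth, feeding and maternal behaviour, and human homologues on the Prader-Willi and Angelman interval are known for neurodevelopmental disease. The table holds total reads per gene and does not separate the parental copies, so every value below is a sum over both.

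Depth was between 35379988 and 64242533 reads assigned to genes in SCO libraries and between 36787949 and 151009954 in hippocampal libraries, with the 2 deepest libraries both hippocampal. The tissue labels matched their markers, since 4 of 4 SCO markers were called higher in SCO and took 0.0256% to 0.0689% of SCO reads against 0.00151% to 0.00399% of hippocampal reads. Of 10 markers of hippocampal excitatory neurons, 9 were called lower in SCO, where the list took 0.00128% to 0.00507% of reads against 0.147% to 0.185% of hippocampal reads. Other cell populations moved with tissue as well. The 12 pan-neuronal markers, 2 of them called lower, took 0.351% to 0.698% of SCO reads against 0.713% to 0.814% of hippocampal reads, and the 10 markers of neighbouring habenula, thalamus and pretectum, 5 of them called higher, took 0.0900% to 0.151% against 0.00563% to 0.0103%. The 15 choroid plexus markers, 2 of them called higher, took 0.0628% to 0.444% of SCO reads, highest in SCO library 4, against 0.00935% to 0.0330% of hippocampal reads, and the 5 blood markers, 4 of them called higher, took 0.0804% to 0.148% against 0.00781% to 0.0445%. The 9 markers of ciliated ependyma found in the table, 4 of them called higher, took 0.0312% to 0.0607% of SCO reads against 0.00601% to 0.0101% of hippocampal reads. The shares of the 8 microglial and 10 endothelial markers, 0 of them called, did not overlap between tissues either. They were 0.0492% to 0.0621% against 0.0225% to 0.0358% for microglia and 0.0327% to 0.0418% against 0.0165% to 0.0272% for endothelium. For meningeal, pericyte, oligodendrocyte lineage and radial glia markers the shares overlapped. Among these, 1 pericyte marker and 2 radial glia markers were called higher, and 1 radial glia marker was called lower. The part of these populations in the differences below was not tested, and in bulk tissue fewer cells of a type and less RNA per cell cannot be told apart.

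Many members lie inside or across other genes, and the deposited counts gave the same reads to both. Across the table, 4564 pairs had one gene nested within the span of another, with at least 100 reads in the inner gene in total. In 4562 of them the outer gene had at least as many reads as the inner gene in every one of the 9 libraries. The same held for 1330 of 1330 pairs that lay on opposite strands and shared no exon bases, so introns were included in the counts. The strand setting used for counting is not given here. A read in overlapping genes thus entered the library totals more than once. Of the 32 members, 20 overlapped another gene of the table and 14 shared exon bases with one, most of all Snrpn, with 34.1% of its exon bases, Cdkn1c, with 30.7%, and Ube3a, with 27.3%. A value of such a member can therefore include reads of its neighbour, which is given below where a result turns on it.

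The start regions of 4 members that begin inside another gene are printed as a description. They cannot tell a member's reads from those of that gene. Each is the RefSeq window from 250 bases before to 50 bases after the start (GRCm38.p6), 5′ to 3′ on the gene's own strand, and capitals mark TGCCGC or its reverse complement GCGGCA, the letters that the imprint-protecting zinc finger protein Zfp57 is known to bind when methylated. The windows are chr6:58907077-58907376 on the minus strand for Nap1l5, inside Herc3; chr2:157559828-157560127 on the plus strand for Nnat, inside Blcap; chr11:22971755-22972054 on the plus strand for Zrsr1, inside Commd1; and chr17:12741061-12741360 on the plus strand for Airn, inside Igf2r.
Nap1l5: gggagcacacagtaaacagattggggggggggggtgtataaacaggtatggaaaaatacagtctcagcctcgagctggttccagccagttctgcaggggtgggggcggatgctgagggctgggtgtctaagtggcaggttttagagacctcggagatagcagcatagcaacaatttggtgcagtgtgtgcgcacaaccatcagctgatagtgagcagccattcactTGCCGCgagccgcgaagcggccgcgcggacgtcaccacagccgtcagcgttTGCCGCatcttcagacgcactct
Nnat: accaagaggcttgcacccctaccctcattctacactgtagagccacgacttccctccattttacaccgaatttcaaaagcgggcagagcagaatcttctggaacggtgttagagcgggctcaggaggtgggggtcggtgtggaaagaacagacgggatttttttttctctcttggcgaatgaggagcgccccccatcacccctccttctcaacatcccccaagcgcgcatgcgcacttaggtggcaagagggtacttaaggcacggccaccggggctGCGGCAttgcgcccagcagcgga
Zrsr1: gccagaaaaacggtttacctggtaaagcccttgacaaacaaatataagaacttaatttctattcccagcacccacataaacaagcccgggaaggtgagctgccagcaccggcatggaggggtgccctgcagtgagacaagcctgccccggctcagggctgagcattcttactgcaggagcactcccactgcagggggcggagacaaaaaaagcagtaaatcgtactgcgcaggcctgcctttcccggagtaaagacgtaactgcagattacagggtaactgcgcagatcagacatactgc
Airn: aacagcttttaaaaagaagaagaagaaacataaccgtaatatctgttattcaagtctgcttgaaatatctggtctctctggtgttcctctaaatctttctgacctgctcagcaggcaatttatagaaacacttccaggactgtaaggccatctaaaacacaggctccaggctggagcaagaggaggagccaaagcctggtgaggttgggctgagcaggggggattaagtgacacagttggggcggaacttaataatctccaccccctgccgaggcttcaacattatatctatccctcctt
The Nap1l5 window held 2 such matches and 17 CpG dinucleotides, and the Nnat window held 1 match and 17 CpG. The Zrsr1 window held 10 CpG and the Airn window 3 CpG, and neither held a match on either strand. Over the 43 windows used, from 26 members, 9 windows of 8 genes held a match. That is 20.9%, compared with 11.6% of all 32851 windows of the same length. Impact was left out of the member windows, and H19, Cdkn1c, Sgce, Peg10 and Rtl1 had no window among the 43. The member side of the comparison is thus a selection, set against all 32851 windows. The effect of leaving out Impact on the share with a match was not tested. The median window of the members held 13 CpG, against 7 over all windows. TGCCGC itself contains a CpG, and the part of CpG content in the share of windows with a match was not tested. A match is a description of these letters and not of binding, and several members contribute more than 1 window. Mest windows that start at chr6:30737800 and chr6:30737803 overlap and hold the same matches, which were thus counted more than once.

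Reads in imprinted genes made up 0.889% to 1.13% of all gene reads in SCO libraries and 0.639% to 0.897% in hippocampal libraries, so the ranges overlapped only slightly, between SCO library 2 and hippocampal library 2. Most of those reads came from 4 genes, namely Nnat, a small membrane proteolipid of developing neurons, Snrpn, a spliceosomal protein, Meg3, a long non-coding RNA, and Ndn, a MAGE family growth suppressor of neurons. Together these held 82.5% to 87% of the members' reads in SCO and 84% to 90.8% in hippocampus. Per kilobase of annotated exon, Nnat stood first in both tissues, with 159774 ± 29906 normalized counts in SCO and 119076 ± 39784 in hippocampus (SD, n = 4 and 5), followed by Snrpn with 43631 ± 9409 in SCO and 37715 ± 4707 in hippocampus. On the same per-kilobase scale Nap1l5 came next in SCO, at 17251 ± 7367, ahead of Ndn at 13568 ± 5420 by less than their spread. In hippocampus Ndn came next, at 7155 ± 2834, ahead of Nap1l5 at 3388 ± 911. Since introns were counted too, the order was also taken per kilobase of the whole span, where Nnat again stood first, with 119520 ± 22371 in SCO and 89075 ± 29761 in hippocampus. Snrpn, whose span of 157725 bases is mostly intron, then stood behind Nap1l5, Ndn, Meg3 and Mkrn3, at 597 ± 129 per kilobase of span in SCO and 516 ± 64.4 in hippocampus. At the other end stood Peg10, a retrotransposon-derived gene known for its role in the placenta, with 0.420 ± 0.839 per kilobase of exon in SCO and 0.0374 ± 0.0837 in hippocampus.

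**Figure D1:**
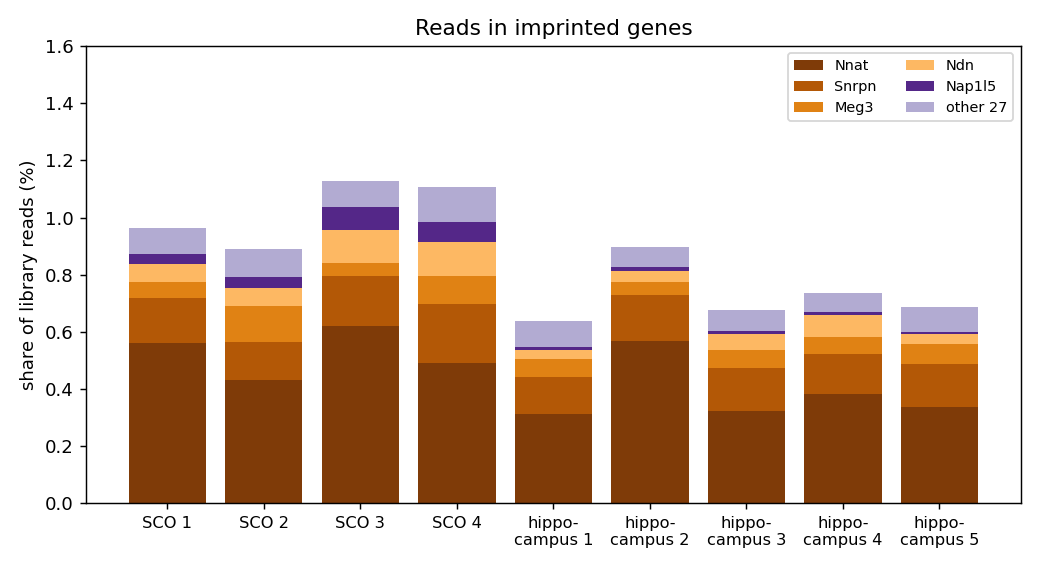
Share of each library's gene-assigned reads (percent, vertical axis) that fell in the 32 imprinted genes, for 4 SCO and 5 hippocampal libraries. Nnat, Snrpn, Meg3, Ndn and Nap1l5 are stacked by gene, with the other 27 members summed. Nnat forms the largest block in every library, and the Nap1l5 block is taller in each SCO library, at 0.0370% to 0.0800%, than in any hippocampal library, at 0.00694% to 0.0138%.

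**Figure D2:**
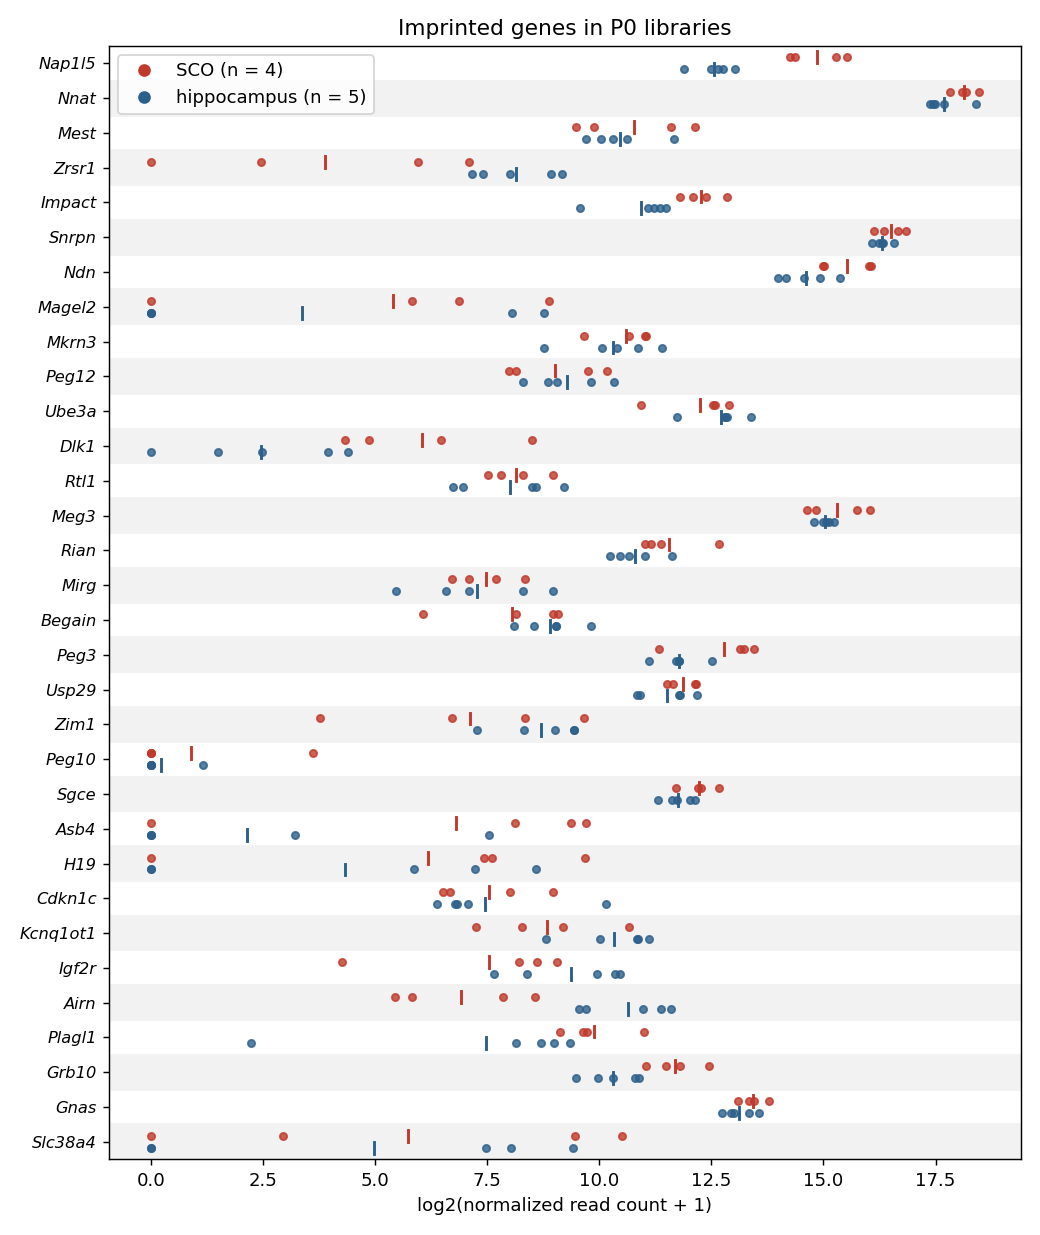
Level of each of the 32 imprinted genes as log2(normalized read count + 1) on the horizontal axis, with 1 point per library, SCO in red above hippocampus in blue, and a vertical tick at each tissue's mean. Nap1l5, Grb10 and Impact have all SCO points above all hippocampal points, Airn and Zrsr1 have them all below, and the other 27 overlap.

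The comparison of SCO with hippocampus asked which imprinted genes differ in level between the gland and the hippocampus. With limma on log2(normalized count + 1) over the 28150 genes whose mean reached 1 in SCO or in hippocampus, 1 member was called higher in SCO, Nap1l5, and 1 was called lower, Airn, at a Benjamini-Hochberg adjusted p under 0.05. Of all genes tested, 1.71% were called higher and 1.34% lower, or 3.05% in either direction. With edgeR's quasi-likelihood test on the recovered reads, 1.79% of all genes were called and Nap1l5 was the only member among them. In the authors' deposited table, 5 members had an adjusted p under 0.05, namely Nap1l5, Airn, Grb10, Dlk1 and Impact, compared with 12.7% of the genes for which that table gives one. The tissues did not overlap for 3 members that were higher in SCO and for 2 that were lower, compared with 4.78% and 3.75% of all genes tested. An unadjusted p under 0.05 was reached by 8 of 32 members, namely Nap1l5, Airn, Grb10, Impact, Zrsr1, Ndn, Dlk1 and Peg3, against 15.5% of all genes.

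The fitted log2 fold change of SCO minus hippocampus was above 0 for 24 of the 32 members, with a median of 0.33, while 48.6% of all tested genes were above 0 and their median was -0.04. Among the 20 members known as paternally expressed, 16 were above 0 with a median of 0.45, 1 was called higher and 1 lower. Among the 9 tested members known as maternally expressed, 6 were above 0 with a median of 0.19 and none was called, and no unadjusted p of these 9 was under 0.05. All members but Nap1l5 and Airn missed the adjusted threshold.

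**Figure D3:**
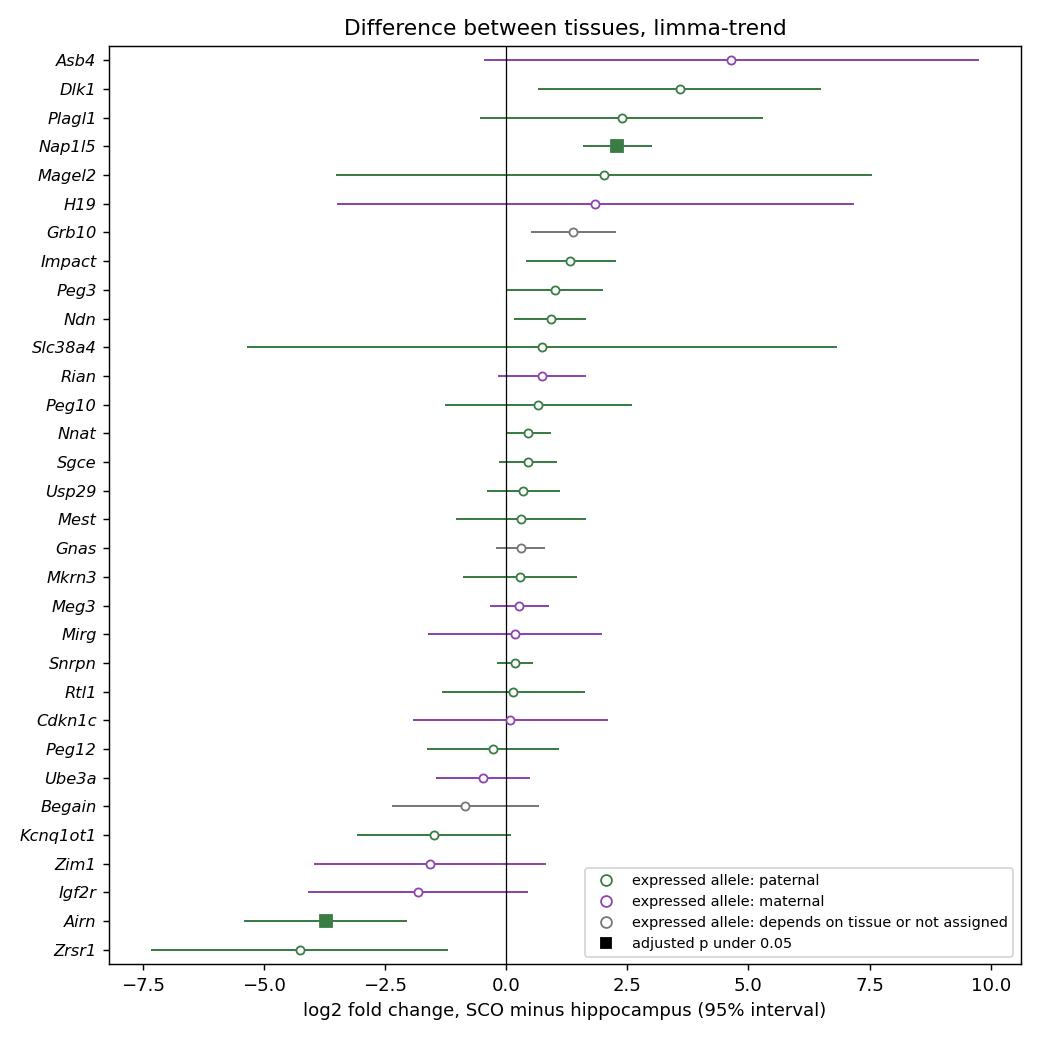
Fitted log2 fold change of SCO minus hippocampus for each of the 32 imprinted genes with its 95% interval from limma, ordered by size and coloured by the parental copy each gene is known to be expressed from; filled squares mark an adjusted p under 0.05. Nap1l5 at 2.29 and Airn at -3.72 are the 2 called members, and low-count genes such as Asb4 and Slc38a4 have the widest intervals.

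Nap1l5, an intronless gene related to the nucleosome assembly proteins and expressed from the paternal copy, was the imprinted gene that separated the tissues most firmly. Its normalized counts were 19505, 21204, 46954 and 39579 in SCO libraries 1 to 4, against 5766, 8371, 6918, 6400.0 and 3782 in hippocampal libraries 1 to 5. Every SCO library stood above every hippocampal library, and SCO libraries 3 and 4 stood well above SCO libraries 1 and 2. The means were 31810.4 ± 13584 in SCO and 6248 ± 1680.2 in hippocampus (SD, n = 4 and 5), a ratio of 5.09. The log2 fold change was 2.29 with a standard error of 0.32 (limma adjusted p = 0.00379, edgeR adjusted p = 0.00749). Leaving out any 1 of the 9 libraries kept the call, with limma adjusted p between 0.00507 and 0.0133.

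Nap1l5 occupies chr6:58905233-58907076 on the minus strand, within the span of Herc3, a ubiquitin ligase gene on the opposite strand with which it shares no exon bases. Herc3 as deposited averaged 32909 normalized counts in SCO and 7306 in hippocampus, with a log2 fold change of 2.10 and a standard error of 0.29 (limma adjusted p = 0.00355). Nap1l5 reads made up 94.3% to 98.1% of the Herc3 value in SCO libraries. What remained of Herc3 after they were taken off was 1177, 1134, 1304 and 779 in SCO, against 2035, 399, 1492, 1.46 and 1363 in hippocampus, so the tissues overlapped. Refitted on that remainder, the log2 fold change of Herc3 was 1.70 with a standard error of 1.72 and a 95% interval from -2.11 to 5.50 (limma adjusted p = 0.657). In every library these remaining reads, from the whole rest of the Herc3 span, were fewer than those of Nap1l5.

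**Figure D4:**
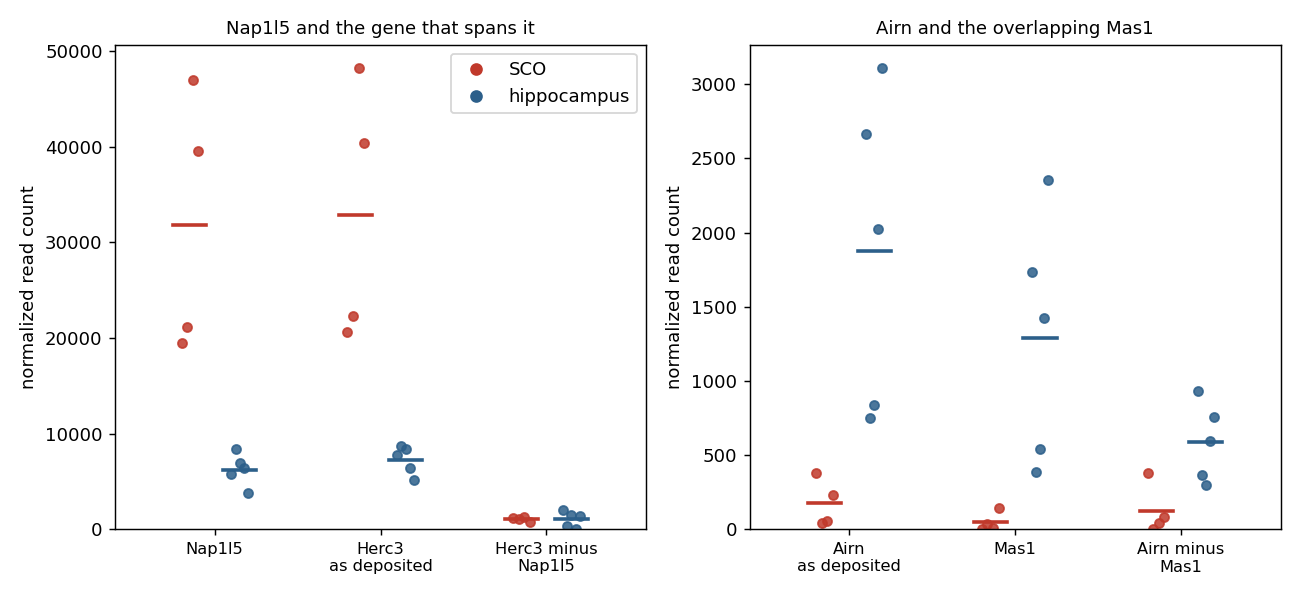
Normalized read counts by library (points) and their mean (bars) in SCO, red and left, and hippocampus, blue and right. The left panel shows Nap1l5, Herc3 as deposited and Herc3 after subtraction of Nap1l5, and the right panel shows Airn as deposited, Mas1, and Airn after subtraction of Mas1; the Herc3 remainder overlaps between tissues and so does Airn after subtraction.

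Airn, the paternally expressed long non-coding RNA that runs antisense to Igf2r and is known to silence it on the paternal copy in many tissues, was the 1 member called lower. Its normalized counts were 379, 42.8, 55.7 and 231 in SCO, against 2665, 751, 839, 2024 and 3110.3 in hippocampus. The highest SCO library was below the lowest hippocampal one. The means were 177 ± 159.6 in SCO and 1878 ± 1062 in hippocampus (SD, n = 4 and 5), and the log2 fold change was -3.72 with a standard error of 0.76 (limma adjusted p = 0.0275). The call did not hold under edgeR (adjusted p = 0.0677), nor in 5 of the 9 refits that left out 1 library, namely SCO 2, SCO 3, hippocampus 1, hippocampus 4 or hippocampus 5, over which and the other 4 the limma adjusted p ran between 0.0178 and 0.0737.

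The span of Airn, chr17:12741311-12860136 on the plus strand, also covers 19058 bases of Mas1, a G protein-coupled receptor gene on the minus strand, including 87.4% of its exon bases. Mas1 had 1.49, 39.9, 12.8 and 144 normalized counts in SCO, against 1731, 385, 542, 1427 and 2352 in hippocampus. The 5 hippocampal libraries stood in the same order for Mas1 as for Airn, and Mas1 was called lower in SCO, with a log2 fold change of -5.61 and a standard error of 1.12 (limma adjusted p = 0.0246). Airn minus Mas1 was 377, 2.95, 42.9 and 86.2 in SCO, against 934, 366, 297, 596 and 758 in hippocampus. SCO library 1 then stood above 2 of the hippocampal libraries. With Mas1 reads subtracted and the rest of the fit unchanged, the log2 fold change of Airn was -3.47 with a standard error of 1.14. The 95% interval ran from -5.99 to -0.95, and the call of Airn was lost (limma adjusted p = 0.15). Since whole spans were counted, reads of Airn within Mas1 can be in the Mas1 value too and be taken off with it. All of Mas1 was subtracted, including its part outside Airn, and reads shared with Igf2r were left in, so the difference does not measure Airn alone. Igf2r, the receptor that clears insulin-like growth factor II and is expressed from the maternal copy in most tissues, shares 28354 bases of span with Airn. It had 391, 535, 18.3 and 297 normalized counts in SCO, against 1311, 333, 995, 201 and 1405 in hippocampus. The tissues overlapped, and the log2 fold change of -1.82 had a standard error of 1.03 (limma adjusted p = 0.445).

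Grb10 and Impact were higher in every SCO library than in any hippocampal library without passing the adjusted threshold. Grb10, an adaptor that restrains insulin and growth factor signalling and is expressed from the paternal copy in neurons but from the maternal copy in most other tissues, had 2098, 3549.8, 2866 and 5553 normalized counts in SCO, against 1895, 716, 1011, 1792 and 1275 in hippocampus. SCO library 1 cleared hippocampal library 1 by a narrow margin. The log2 fold change was 1.39 with a 95% interval from 0.52 to 2.26 (limma adjusted p = 0.0954), while the authors' deposited table gave it an adjusted p of 0.00685. Impact, an inhibitor of the Gcn2 stress kinase that is abundant in neurons, had 3545, 5301, 4368 and 7387 in SCO, against 2369, 2181, 2602, 755 and 2895 in hippocampus. Hippocampal library 4 was well below its group, and the log2 fold change of 1.33 had a 95% interval from 0.41 to 2.26 (limma adjusted p = 0.128; adjusted p = 0.0227 in the authors' deposited table). Neither gene overlaps another gene of the table.

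Zrsr1, a retrogene encoding a relative of a splicing factor subunit and expressed from the paternal copy, had the lowest log2 fold change of all members in the limma fit, while in edgeR and DESeq2 that of Airn was lower. Its normalized counts were 136, 0, 61.2 and 4.48 in SCO, against 169.8, 571, 143, 488 and 255 in hippocampus. All SCO libraries were below all hippocampal ones, with a narrow gap between SCO library 1 and hippocampal library 3. The log2 fold change was -4.26 with a standard error of 1.39 in limma (adjusted p = 0.147), and -2.72 in edgeR (adjusted p = 0.301). It lies within the span of Commd1, on the other strand, shares 412 exon bases with it, and made up 0% to 2.09% of the Commd1 value in SCO and 2.48% to 9.36% in hippocampus. Because introns were counted, reads of unspliced Commd1 can fall in Zrsr1, and Commd1 itself averaged 5847 ± 789 in SCO and 6578 ± 3088 in hippocampus.

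Nnat, the most abundant member, had 295928, 230987, 363162 and 278827 normalized counts in SCO, against 169798, 344997, 178899.7, 211206 and 184045 in hippocampus. Hippocampal library 2 alone reached the SCO range, and the other 4 hippocampal libraries were below all SCO libraries. The log2 fold change was 0.46 with a 95% interval from -0.01 to 0.93 (limma adjusted p = 0.338), and without hippocampal library 2 it was 0.64 with a standard error of 0.13 and passed the threshold (limma adjusted p = 0.0308). Nnat lies in Blcap, an imprinted gene on the other strand, and made up 90.6% to 93.8% of the Blcap value in SCO and 89.7% to 97% in hippocampus. Blcap without Nnat was 22485 ± 5932 in SCO and 15993 ± 4054 in hippocampus, with a log2 fold change of 0.49 and a 95% interval from -0.07 to 1.05 (limma adjusted p = 0.394).

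None of the 6 members of the Prader-Willi and Angelman interval on chromosome 7 was called. Ndn had 32533, 33080.4, 68744 and 66122 normalized counts in SCO, against 16343, 24296, 30912, 42177 and 18425 in hippocampus. SCO libraries 3 and 4 stood above all hippocampal libraries and SCO libraries 1 and 2 within their range, and the log2 fold change of 0.92 had a 95% interval from 0.17 to 1.66 (limma adjusted p = 0.204). Snrpn averaged 94199 ± 20313 in SCO and 81427 ± 10162 in hippocampus, and its log2 fold change of 0.19 had a 95% interval from -0.18 to 0.56, the narrowest of the members. Magel2, a MAGE family gene linked to feeding and sleep, was at 0 in SCO library 1 and in hippocampal libraries 1 to 3, with 56.1 to 467 normalized counts in the other SCO libraries and 265 and 438 in hippocampal libraries 4 and 5. Mkrn3, a ubiquitin ligase that restrains puberty in humans, averaged 1649 ± 605 in SCO and 1487 ± 855 in hippocampus. Peg12, an intronless relative of Gsk3-binding proteins, averaged 635 ± 441 in SCO and 699.6 ± 393 in hippocampus. Ube3a, the ubiquitin ligase of Angelman syndrome, which neurons express from the maternal copy, averaged 5404 ± 2404 in SCO and 7148 ± 2587 in hippocampus, with a log2 fold change of -0.48 and a 95% interval from -1.44 to 0.49. Snhg14, on the other strand, shares 1803 exon bases with Ube3a and averaged 2934 ± 2226 in SCO and 3884 ± 1141 in hippocampus. The Ube3a value can include its reads. Gm32061, a non-coding gene whose span covers Ndn, Magel2 and Mkrn3, held nearly nothing beyond their reads, with 233 ± 288 normalized counts left in SCO and 9.0 ± 15 in hippocampus.

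The 6 members of the Dlk1-Meg3 cluster on chromosome 12 differed widely in abundance, and none was called. Meg3, the maternally expressed RNA at the head of the cluster, had 29322, 66855, 25466 and 54844 normalized counts in SCO, against 35568, 28291, 34139.6, 32689.8 and 38831 in hippocampus. The SCO libraries straddled the narrow hippocampal range, 2 above it and 1 below, and the log2 fold change was 0.27 with a 95% interval from -0.34 to 0.89 (limma adjusted p = 0.657). Rian, a host RNA of snoRNAs, averaged 3373 ± 2094 in SCO and 1902 ± 778 in hippocampus, and SCO library 4, at 6494, carried much of the difference. Dlk1, a transmembrane relative of Notch ligands that restrains differentiation, had 364, 19.2, 28.3 and 88.4 in SCO, against 20.0, 0, 14.4, 1.83 and 4.57 in hippocampus. Only SCO library 2 fell below the highest hippocampal library, and the log2 fold change of 3.59 had a 95% interval from 0.67 to 6.50 (limma adjusted p = 0.205; adjusted p = 0.0208 in the authors' deposited table). Mirg, a host RNA of microRNAs, averaged 193 ± 96.5 in SCO and 217 ± 187 in hippocampus. Rtl1, a retrotransposon-derived gene known in placenta and muscle, averaged 307 ± 143 in SCO and 314 ± 204 in hippocampus. Begain, a postsynaptic scaffold-associated protein, averaged 348 ± 219.8 in SCO and 519 ± 239 in hippocampus.

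In the Peg3 cluster at the proximal end of chromosome 7, Peg3, a zinc finger protein linked to maternal behaviour, had 2578, 8972, 11266 and 9656 normalized counts in SCO, against 5825, 2224, 3346, 3500.4 and 3497 in hippocampus. SCO libraries 2 to 4 were above every hippocampal library and SCO library 1 was near the bottom of them. The log2 fold change was 1.01 with a 95% interval from 0.03 to 2.00 (limma adjusted p = 0.306), and without SCO library 1 it was 1.5 and passed the threshold (limma adjusted p = 0.0429). Usp29, a ubiquitin protease gene that starts beside Peg3 on the other strand, averaged 3799 ± 873 in SCO and 3092 ± 1193 in hippocampus. Zim1, a maternally expressed zinc finger gene of the cluster, averaged 312 ± 355 in SCO and 474 ± 237 in hippocampus. Neither differed beyond its spread.

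In the Peg10 cluster on chromosome 6, Sgce and Peg10 start back to back yet differed widely in level in both tissues. Sgce, the epsilon-sarcoglycan whose human homologue is mutated in myoclonus-dystonia, had 3347, 4966, 6556 and 4682 normalized counts in SCO, against 4485, 3414, 2545, 3168 and 4164 in hippocampus. The tissues overlapped, and the log2 fold change of 0.45 had a 95% interval from -0.15 to 1.05 (limma adjusted p = 0.492). Peg10 was at 0 in all libraries but SCO library 4, with 10 reads, and hippocampal library 1, with 1 read. Asb4, a maternally expressed substrate adaptor of a ubiquitin ligase, had 0, 836, 664 and 278 in SCO, against 0, 8.25, 0, 185 and 0 in hippocampus. SCO library 1 was at 0, as were hippocampal libraries 1, 3 and 5, and the log2 fold change of 4.65 had a 95% interval from -0.45 to 9.76 (limma adjusted p = 0.370).

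The 3 tested members of the distal chromosome 7 clusters were low and variable. H19, a maternally expressed RNA that is abundant in embryonic mesoderm, had 824, 195, 0 and 171 normalized counts in SCO, against 0, 0, 57.8, 148 and 384 in hippocampus. Cdkn1c, a cyclin-dependent kinase inhibitor expressed from the maternal copy, had 257, 90.1, 100.4 and 497 in SCO, against 109.9, 1132, 113, 133 and 82.6 in hippocampus. Neither separated the tissues, and hippocampal library 2 held the highest Cdkn1c value. Kcnq1ot1, the paternally expressed silencing RNA of that cluster, averaged 666 ± 662 in SCO and 1480.3 ± 724 in hippocampus, with a log2 fold change of -1.49 and a 95% interval from -3.07 to 0.10 (limma adjusted p = 0.355). It lies within Kcnq1, a potassium channel gene on the other strand, and made up 41.7% to 99.8% of the Kcnq1 value in SCO libraries and at least 84.5% in hippocampal ones, so reads of the 2 genes cannot be told apart there.

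The remaining members are growth, signalling and transport genes that lie elsewhere, and none was called. Plagl1, a zinc finger regulator of growth and of other imprinted genes, had 797, 557, 2054 and 853 normalized counts in SCO, against 3.75, 418, 649, 283 and 505 in hippocampus. Hippocampal library 1 was nearly without reads, and only hippocampal library 3 exceeded the lowest SCO library, with a log2 fold change of 2.39 and a 95% interval from -0.53 to 5.31 (limma adjusted p = 0.432). Without hippocampal library 1 the log2 fold change was 1.08 with a standard error of 0.52 (limma adjusted p = 0.405), and edgeR on all libraries gave 1.5. Mest, a hydrolase-like gene of mesoderm also linked to maternal behaviour, averaged 2326 ± 1822 in SCO and 1600.5 ± 971 in hippocampus. Copg2, on the other strand, shares 912 exon bases with Mest and averaged 5775 ± 2403 in SCO and 5565 ± 2467 in hippocampus. The Mest value can include its reads. Gnas, which encodes the stimulatory G protein subunit and further transcripts of both parental copies, averaged 11116 ± 2199.7 in SCO and 9091 ± 2118 in hippocampus, with a log2 fold change of 0.30 and a 95% interval from -0.20 to 0.80. Slc38a4, an amino acid transporter of placenta and liver, was at 0 in SCO library 2 and in hippocampal libraries 1 and 5 and reached 1462 in SCO library 3.

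A further list of 44 imprinted genes outside the 33 was examined in the same fit, of which 41 were tested. Of these, 1 was called higher and none lower, compared with 1.71% and 1.34% of all genes, 29 had a fold change above 0, and the median log2 fold change was 0.23. The list partly repeats reads of the members, since Blcap spans Nnat, Kcnq1 spans Kcnq1ot1 and Snurf lies within Snrpn. An unadjusted p under 0.05 was reached by 10 of the 41, against 15.5% of all genes. edgeR called none, against 1.79% of all genes, and DESeq2 on the recovered reads called Zdbf2, Cd81 and Slc22a18, against 12.6% of the genes for which it gave an adjusted p. The called gene was Cd81, a tetraspanin of many cell types whose imprinting is known from the placenta, with 58155, 66078, 85884 and 72656 normalized counts in SCO, against 38032, 43120.5, 37649.8, 43871 and 37280.2 in hippocampus. The tissues did not overlap, and the log2 fold change was 0.81 with a standard error of 0.14 (limma adjusted p = 0.0143, edgeR adjusted p = 0.0518). Of the other abundant ones, Nap1l4, a nucleosome assembly protein, averaged 28851 ± 2079 in SCO and 26882 ± 9332 in hippocampus. Snurf, which is transcribed with Snrpn and shares exon bases with it, averaged 22686 ± 5143 in SCO and 18977 ± 1774 in hippocampus.

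Of 16 genes known to set or keep imprints, 15 were tested and none was called with limma, while 3.05% of all genes were. An unadjusted p under 0.05 was reached by 5 of the 15, against 15.5% of all genes, and the median log2 fold change was -0.32. edgeR called none of them, against 1.79% of all genes, and DESeq2 on the recovered reads called Tet3 and Trim28, against 12.6% of the genes for which it gave an adjusted p. Zfp445, a zinc finger protein that helps to keep imprints, averaged 4129 ± 1284 in SCO and 5005 ± 2961 in hippocampus. Trim28, the co-repressor recruited by such proteins, averaged 2374 ± 934 in SCO and 4902 ± 1195 in hippocampus, with a log2 fold change of -1.10 and a standard error of 0.33 (limma adjusted p = 0.113). Dnmt3a, a de novo DNA methyltransferase, had 2917, 3039, 4397 and 3239 normalized counts in SCO, against 2698, 2068, 1919, 1081 and 2410.0 in hippocampus, with no overlap and a log2 fold change of 0.78 (limma adjusted p = 0.257). Dnmt1, the maintenance DNA methyltransferase, averaged 2276 ± 1347 in SCO and 2383 ± 1289 in hippocampus.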

How the data were processed

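RNA was extracted with the RNeasy Micro Kit and libraries were made with the TruePrep DNA Library Prep Kit V2, per the labels. The submitters' processing notes name FastQC, HISAT, HISAT2, featureCounts and DESeq2 and the build GRCm38; annotation, versions and strand setting were not stated. The deposited values are counts divided by a size factor (a normalized signal); with a tolerance of 1e-06, 100% of them came out as whole reads of that library, 1 read being worth 0.366 to 1.65 normalized counts. The authors' deposited table also gives its own log2 fold changes, p-values and adjusted p-values, and score columns (standard error and test statistic), which were not used. Genes whose mean reached 1 in SCO or in hippocampus (28150 of 31883) were tested on log2(value + 1) with limma-trend 3.58.1 in R 4.3.3, SCO minus hippocampus, with Benjamini-Hochberg adjustment over all of them; fold changes on this scale depend on the pseudocount, which shrinks those of low genes, while libraries at or near 0 can carry them beyond the ratio of means. edgeR 4.0.16 and DESeq2 1.42.0 on the recovered counts were alternatives. Gene spans came from GENCODE M21 and start windows from RefSeq (GRCm38.p6). The rule for named genes was every member, with called or most abundant genes of the other lists. Members and lists were chosen with earlier results of these data known. The subtraction of overlapping genes was added after seeing the data.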

Additional observations from a re-analysis of the deposited data

Results flagged for a closer look

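A gap test of the highest and lowest library in each tissue (Dixon, 95% level) was applied to the 32 members. It covered 64 groups of values, of which 6 stood out. For normally distributed values chance alone marks about 1 in 20 groups. These counts need not follow that rate, and where every other library is at 0, as for Peg10, any read is marked. Rian had 6494 normalized counts in SCO library 4, where the next highest was 2644; that library also had the highest choroid plexus share, 0.444%, whose part in this was not tested. Hippocampal library 2 stood out for Nnat, with 344997 against a next value of 211206, and for Cdkn1c, with 1132 against 133. Asb4 had 185 in hippocampal library 4, where the next value was 8.25. Peg10 had 11.2 in SCO library 4 and 1.25 in hippocampal library 1, with every other library at 0.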

How the results depend on the processing

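Of all genes, 859 were called in the analysis reported above, with 1 imprinted gene higher and 1 lower. edgeR called 503 genes and 0 members lower; DESeq2 called 2706 genes and 4 members higher (Dlk1, Grb10, Impact and Nap1l5). Leaving out 1 library at a time gave 498 to 1077 genes (564 without SCO library 3, 565 without hippocampal library 1, 498 without hippocampal library 3), 1 to 2 members higher and 0 to 1 lower. Subtracting the reads of overlapping genes, an alternative chosen after seeing the data, left 0 members lower. With a replicate block on the title number 180 genes were called, with 1 member higher and 0 lower, and with a block on the library number, which keeps 2 libraries a tissue, 0 genes and 0 members in either direction. Whether either number pairs the libraries is not stated. Same-numbered libraries did not deviate together (correlations -0.0289 to 0.0569), but so few libraries cannot settle whether they are paired. TMM scaling, pseudocounts of 0.5 and 10, other filters and robust fitting kept the counts within 1.5 times, and no called member changed direction under any alternative run; apart from the effect of fewer libraries or fewer reads, the cause of these changes was not tested. Counts near 0, as for Peg10, Magel2, Asb4, Slc38a4 and Zrsr1, limit what these depths can show.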
